A study of Mus musculus with 12 samples.

Results

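The transcripts described here are those of Klf9 and 9 other genes known for their response to glucocorticoids (Fkbp5, Tsc22d3, Zbtb16, Sgk1, Dusp1, Nr3c1, Mt1, Mt2 and Cebpd). They were measured by RNA-Seq in tumors grown from CT-26 cells, a line of colon carcinoma cells from the BALB/c mouse strain. The genes were chosen by symbol, with earlier results of the swimming and control groups known, and all 10 were found among the 30630 mouse genes listed for every tumor. The comparison of the groups is therefore given for them as a description and not as a test, without p-values of single members. Male BALB/c mice, 4 to 6 weeks old when bought, carried CT-26 cells injected with Matrigel under the skin of the right flank. Mice of the swimming group swam for 3 weeks, and mice of the control group did not. From 10 mice in each group, 6 tumors were sequenced after removal of ribosomal RNA, and each tumor is from a different mouse. All tumors descend from 1 cell line, and the RNA is from whole tumor tissue with the host cells it holds.

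Glucocorticoids are adrenal steroid hormones that rise with stress and with the daily rhythm. They enter cells and bind the glucocorticoid receptor, which is encoded by Nr3c1. The bound receptor leaves its chaperones, moves to the nucleus and binds short palindromic DNA elements, where it raises the transcription of many genes and lowers that of many inflammatory genes. Krüppel-like factor 9, the product of Klf9, is a zinc finger transcription factor that binds GC-rich and CACCC sequences and is a direct target of the receptor in many tissues.

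Expression is given as FPKM, a read number divided by the length of the gene and the sequencing depth of the tumor. Read numbers are not held in these values, so the absolute depth is unknown and counting errors cannot be given. Depth relative to control 1 was estimated from FPKM ratios of genes above 0 in every tumor with a mean below 0.5 FPKM. The estimate was 0.694 in control 2 and 0.871 to 1 in the other tumors. Correlations of log2(FPKM + 1) between tumors over all genes were 0.982 to 0.993. The keratins Krt8, Krt18 and Krt19 exceeded 0.5 FPKM in at least 1 tumor, while 5 of the 8 markers listed for CT-26 carcinoma (Krt7, Epcam, Cdh1, Cldn4 and Cldn7) were below 0.5 FPKM in every tumor. The summed level of the adipocyte markers was 187 FPKM in control 1, 9 to 17.6 FPKM in the other control tumors and 11.8 to 47.5 FPKM in the swimming group. The part of adjacent tissue in the values of single tumors was not tested.

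Klf9, Tsc22d3 and Sgk1 were lower in the swimming group, with mean levels of 0.681, 0.452 and 0.571 times those of the control group. Dusp1 and Cebpd had lower means with wide overlap of the groups. The levels of Fkbp5, Mt1 and Mt2 were close in both groups, and Nr3c1 was slightly higher on average in the swimming group. Zbtb16 was near 0 in all tumors. Of the 9 genes that passed the filter of 0.1 FPKM in at least 6 tumors, 3 had an unadjusted p below 0.05, all of them lower in the swimming group. Over all 19018 genes tested this held for 5.56% in either direction and for 2.46% in the lower direction. Because the genes were chosen with this comparison known, nothing is read from that count. After Benjamini-Hochberg adjustment over all genes tested in limma, 0 genes had an adjusted p below 0.05 (0%), against 1058 at an unadjusted p below 0.05, and the smallest adjusted p was 0.204. The groups did not overlap for 28 of all genes tested (0.147%, with 0.0684% lower and 0.0789% higher in swimming tumors), and none of the 9 was among them. The median difference in log2(FPKM + 1) was -0.25 over the 9 genes and 0.004 over all genes tested.

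**Figure D1:**
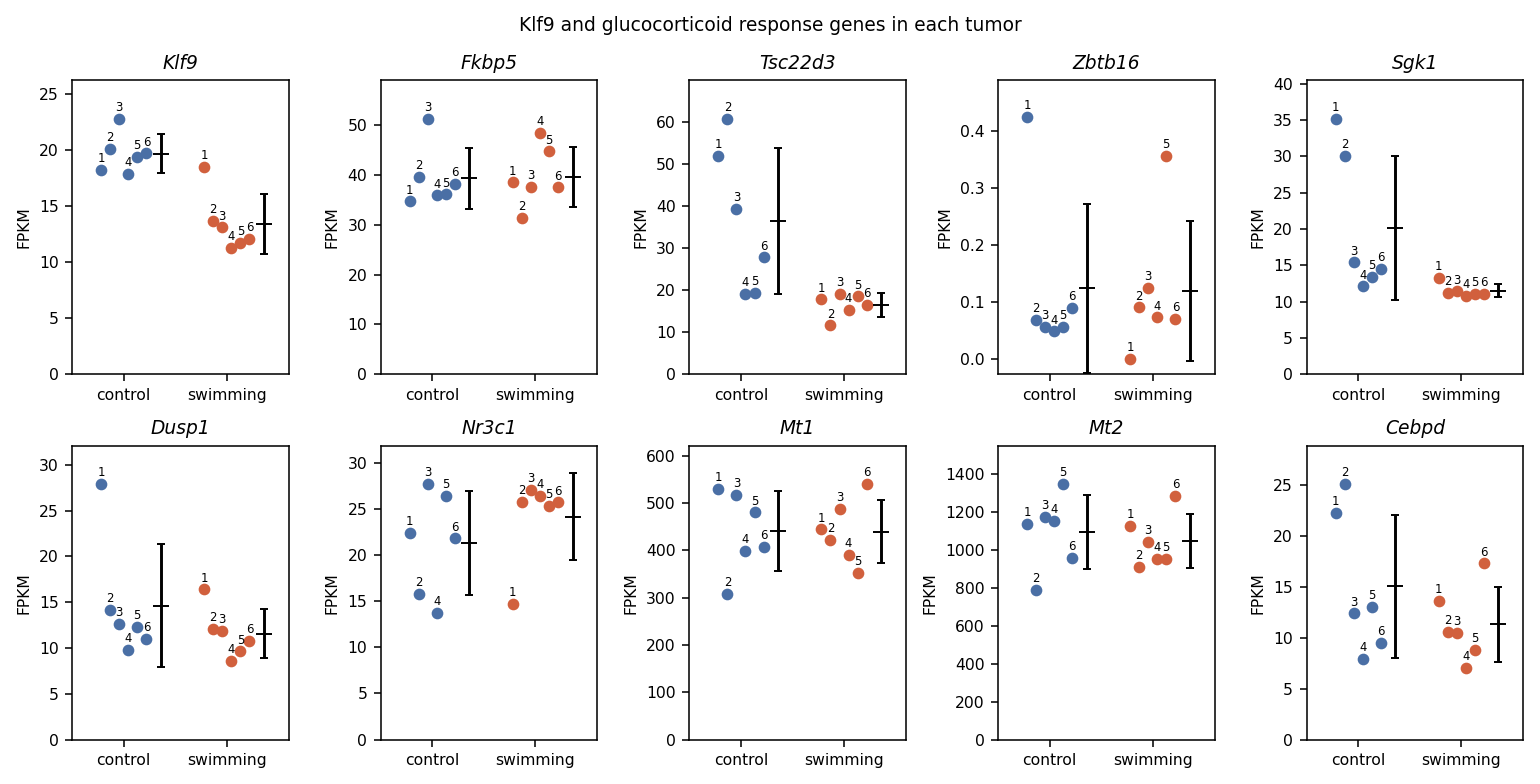
Level of each of the 10 genes in FPKM (y axis) in the control and swimming tumors (x axis). Points are tumors with their replicate numbers, and bars are the mean ± SD of 6 tumors. Klf9 was 11.3 to 13.7 FPKM in 5 swimming tumors and 18.5 FPKM in swimming 1, while Tsc22d3 and Sgk1 were highest in control 1 and control 2.

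Nr3c1 encodes the receptor itself, so its level was compared first. In the control group it was 13.7 FPKM at the lowest, 22.1 at the median and 27.7 at the highest. In the swimming group the lowest value was 14.7 FPKM in swimming 1, the median was 25.7 and the highest was 27.1, so the other 5 swimming tumors lay together between 25.3 and 27.1 FPKM. The low tumors were control 2 and control 4 in the control group and swimming 1 in the swimming group. The groups overlapped, and the difference in log2(FPKM + 1) was 0.19 with a standard error of 0.18. Without control 4 the difference was 0.08, and without swimming 1 it was 0.32.

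Among other genes of receptor function, 18 of 20 were listed and 16 were tested, and 0 had an unadjusted p below 0.05 in limma in either direction, with a median difference of 0.04 in log2(FPKM + 1). Hsp90ab1, a chaperone that holds the unbound receptor, was the most strongly expressed of them, at 982 ± 52.6 FPKM in control and 1008 ± 39.1 FPKM in swimming tumors (SD, n = 6). Fkbp4, a co-chaperone that aids transport of the receptor, was 116 ± 10.3 and 109 ± 6.62 FPKM. Nr3c2, the mineralocorticoid receptor, had means of 0.0432 and 0.0424 FPKM, and Hsd11b2, which inactivates corticosterone, had means of 0.0666 and 0.0736 FPKM. Both were below the filter. Hsd11b1, which regenerates active corticosterone, was 0.457 ± 0.25 FPKM in control and 0.326 ± 0.106 FPKM in swimming tumors. Fkbp4, Nr3c2, Hsd11b1 and Hsd11b2 are named for their roles and were picked after their values were seen.

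Fkbp5 encodes a co-chaperone that lowers hormone binding by the receptor and is itself induced by it. Its level was 34.7, 37.1 and 51.3 FPKM at the lowest, median and highest control tumor, and 31.3, 38 and 48.4 FPKM in the swimming group. Control 3 was the highest tumor of all, followed by swimming 4 and swimming 5. The groups overlapped over nearly their whole range, with a difference of 0.01 in log2(FPKM + 1) and a standard error of 0.11. Leaving out 1 tumor at a time gave -0.05 to 0.09.

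Klf9 lies on chromosome 19 (positions 23141226 to 23168134, plus strand, GRCm38). Its level in the control tumors was 17.9 FPKM at the lowest, 19.5 at the median and 22.8 at the highest. In the swimming tumors it was 11.3 FPKM at the lowest, 12.6 at the median and 18.5 at the highest. Swimming 1, at 18.5 FPKM, lay within the control range, and the other 5 swimming tumors, from 11.3 to 13.7 FPKM, lay below every control tumor. The mean was 19.7 ± 1.76 FPKM in control and 13.4 ± 2.63 FPKM in swimming tumors (SD, n = 6), with a difference of -0.53 in log2(FPKM + 1) and a standard error of 0.10. Of the 19018 genes tested, 58 had a lower difference. The difference was -0.63 to -0.49 when any 1 tumor was left out, and -0.55 without control 1 and control 2. A lower level in whole tissue can come from fewer cells of a type or from less RNA per cell, which cannot be told apart in these data.

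Tsc22d3 encodes GILZ, a leucine zipper protein that mediates anti-inflammatory effects of glucocorticoids in immune cells. Its level was 19.1, 33.5 and 60.8 FPKM at the lowest, median and highest control tumor, and 11.6, 17.1 and 19.1 FPKM in the swimming group. The control tumors were far apart, with 52 FPKM in control 1, 60.8 in control 2 and 39.3 in control 3, and 19.1 to 27.8 FPKM in the other 3. The swimming tumors lay together, and 5 of them were below every control tumor. The mean was 36.4 ± 17.4 FPKM in control and 16.5 ± 2.74 FPKM in swimming tumors. The difference was -0.98 in log2(FPKM + 1) with a standard error of 0.27, and 10 of the genes tested had a lower one. It was -0.60 without control 1 and control 2, and -0.40 without control 3 as well.

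Sgk1 encodes a serum- and glucocorticoid-regulated kinase that acts on ion channels and cell survival. Control 1 and control 2 had 35.2 and 30.1 FPKM, while the other control tumors had 12.1 to 15.4 FPKM. The swimming tumors had 10.8 FPKM at the lowest, 11.2 at the median and 13.3 at the highest, and 5 of the 6 were below every control tumor. The mean was 20.1 ± 9.9 FPKM in control and 11.5 ± 0.912 FPKM in swimming tumors, so the spread between swimming tumors was far smaller. The difference of -0.64 in log2(FPKM + 1), with a standard error of 0.23, was -0.25 without control 1 and control 2.

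**Figure D2:**
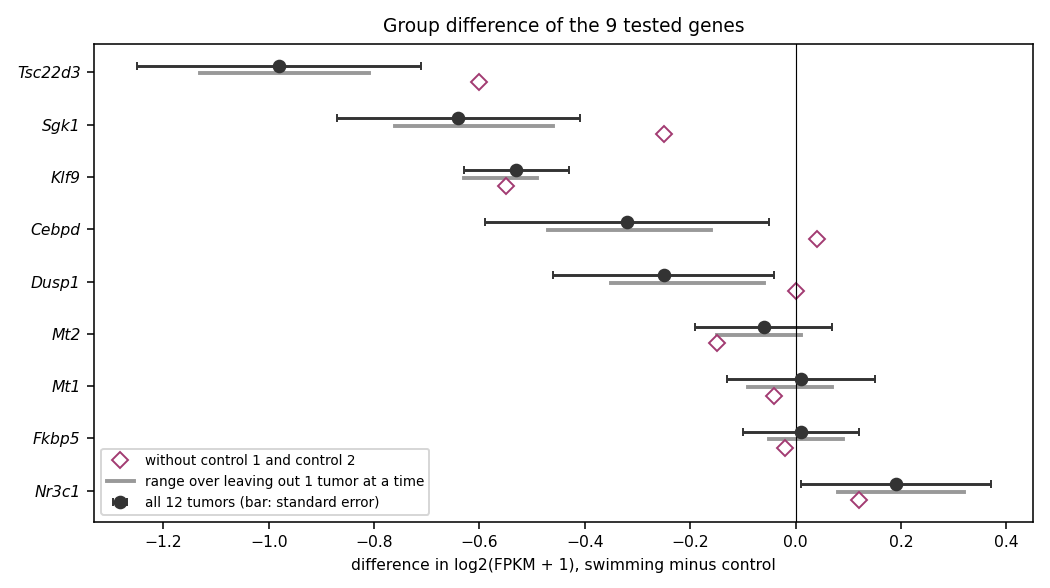
Difference of the 9 tested genes in log2(FPKM + 1), swimming minus control (x axis), by gene (y axis). Filled points with bars are the difference over 12 tumors with its standard error, grey bars the range when 1 tumor is left out at a time, and open diamonds the difference without control 1 and control 2. For Klf9 the diamond, at -0.55, lies beside the point at -0.53, while for Tsc22d3, Sgk1, Cebpd and Dusp1 it lies closer to 0 than the point.

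Promoter windows of RefSeq on GRCm38.p6, from 250 bases before to 50 bases from each transcript start, were at hand for 7 of the 10 genes, in 14 windows. They were searched on both strands for the glucocorticoid response element, written as GNACA and TGTNC with any 3 letters between them. Of all 32851 windows 156 (0.475%) held it, and so did 1 of the 6 windows of Sgk1 and the window of Mt1. The Sgk1 element is shown because Sgk1 is among the 3 genes with the lowest differences. The stretch printed is chr10:21993672-21993744 on the plus strand, with the element at chr10:21993702-21993714, inside the gene, outside annotated exons and ahead of an internal transcript start. Capitals mark the element.

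Sgk1: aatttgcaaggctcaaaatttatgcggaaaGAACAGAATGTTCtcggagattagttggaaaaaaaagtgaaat

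The element begins 188 bases before that start. The same window held 3 copies of the hexamer TGTTCT, of which 2 overlap the element, and 19% of all windows held at least 1 copy. The Klf9 window held 0 response elements, 0 such hexamers and 1 CACCC, a sequence that Krüppel-like factors bind and that 57.5% of all windows held. The single Fkbp5 window and the 3 windows of Tsc22d3 held 0 response elements, and 1 of the Tsc22d3 windows held a TGTTCT. The Dusp1 window held 0 response elements and 5 CACCC. The windows are short, and letters outside them were not searched.

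Dusp1 encodes a phosphatase that switches off MAP kinases. Its level was 27.9 FPKM in control 1 and 9.82 to 14.2 FPKM in the other control tumors, and 8.63, 11.4 and 16.4 FPKM at the lowest, median and highest swimming tumor. Control 1 stood apart, and the other tumors of both groups overlapped. The difference of -0.25 in log2(FPKM + 1), with a standard error of 0.21, was -0.06 without control 1 and 0.00 without control 1 and control 2. An exon of Dusp1 overlaps the gene Ergic1 on the opposite strand, which had 18.3 to 23.5 FPKM. Whether strand was used in the counting is not given in the sources used here.

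Cebpd encodes C/EBP delta, a transcription factor of acute inflammatory and hormone responses. Control 1 and control 2 had 22.3 and 25.1 FPKM, and the other control tumors 7.96 to 13 FPKM. The swimming group had 7.04 FPKM at the lowest, 10.5 at the median and 17.3 at the highest, and overlapped the control group. The difference was -0.32 in log2(FPKM + 1) with a standard error of 0.27, and 0.04 without control 1 and control 2. Cebpd overlaps Spidr on the opposite strand, which had 4.74 to 6.62 FPKM. Of the 4 other C/EBP genes, 0 had an unadjusted p below 0.05 in limma. Cebpb, the highest of them, was 87.2 ± 16.9 FPKM in control and 74.5 ± 15.8 FPKM in swimming tumors. Cebpa was 8.35 ± 2.9 and 6.89 ± 1.32 FPKM, Cebpg 33.2 ± 2.54 and 32.3 ± 3.03 FPKM, and Cebpe was below 2 FPKM in every tumor.

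Zbtb16 encodes PLZF, a zinc finger repressor that is strongly induced by glucocorticoids in many cell types. It had 0.0485 to 0.425 FPKM in control and 0 to 0.356 FPKM in swimming tumors, and did not pass the filter. Control 1, at 0.425 FPKM, and swimming 5, at 0.356 FPKM, were highest, and the other tumors had at most 0.125 FPKM. The groups overlapped and were not tested for this gene.

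Mt1 and Mt2 encode metallothioneins, small cysteine-rich proteins that bind zinc and copper and are induced by metals and by glucocorticoids. Both lie on chromosome 8, Mt2 at 94172664 to 94173568 and Mt1 at 94179082 to 94180327 on the plus strand. The stretches before their starts are shown because that of Mt1 holds the glucocorticoid response element and both hold the metal response core, which is TGCACNC or TGCGCNC and to which the zinc-sensing factor MTF1 binds. The Mt1 stretch is chr8:94178965-94179081 with the glucocorticoid response element and then 1 metal core in capitals. The Mt2 stretch is chr8:94172388-94172580 with 3 metal cores in capitals, the last of them read on the minus strand, and the Mt2 window held 0 glucocorticoid response elements. The sequences are from RefSeq on GRCm38.p6.

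Mt1: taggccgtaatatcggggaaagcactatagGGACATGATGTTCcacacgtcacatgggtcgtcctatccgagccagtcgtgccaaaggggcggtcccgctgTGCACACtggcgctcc

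Mt2: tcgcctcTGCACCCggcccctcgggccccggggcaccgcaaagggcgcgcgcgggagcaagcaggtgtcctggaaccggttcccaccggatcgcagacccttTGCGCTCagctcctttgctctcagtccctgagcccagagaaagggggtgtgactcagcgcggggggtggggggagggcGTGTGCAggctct

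The Mt1 element begins 94 bases before the start of the transcript. Over the whole windows, Mt2 held 4 metal cores and Mt1 held 3, while 25.7% of all windows held at least 1 and 0.517% held 4 or more. Mt2 was the most strongly expressed of the 10 genes. It had 791, 1148 and 1349 FPKM at the lowest, median and highest control tumor, and 913, 999 and 1288 FPKM in the swimming group. Mt1 had 308, 443 and 529 FPKM in the control group and 353, 433 and 540 FPKM in the swimming group. Control 2 was the lowest tumor for both genes, and the groups overlapped. The difference was -0.06 for Mt2, with a standard error of 0.13, and 0.01 for Mt1, with a standard error of 0.14, in log2(FPKM + 1). The ratio of Mt2 to Mt1 was 2.16 to 2.9 in the control group and 2.14 to 2.69 in the swimming group. The Mt2 stretch overlaps an exon of Gm45774 on the opposite strand, a gene that also overlaps Mt2 and had 32.3 to 108 FPKM.

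Among other genes of the metal response, 6 of 6 were tested and 0 had an unadjusted p below 0.05 in limma, with a median difference of -0.01 in log2(FPKM + 1). The highest was the zinc importer Slc39a14, at 15.8 ± 1.57 FPKM in control and 14.9 ± 2.84 FPKM in swimming tumors. The paralogs Mt3 and Mt4 were far below Mt1 and Mt2, with means of 0.196 and 2.57 FPKM in the control group and 0.412 and 3.33 FPKM in the swimming group.

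Ordered by the mean FPKM over 12 tumors, Mt2 (1071) and Mt1 (440) came first and were followed by Fkbp5 (39.5), Tsc22d3 (26.4), Nr3c1 (22.7), Klf9 (16.5), Sgk1 (15.8), Cebpd (13.2), Dusp1 (13.1) and Zbtb16 (0.122). The order of Mt2 over Mt1, of Mt1 over Fkbp5 and of Dusp1 over Zbtb16 held in all 12 tumors. Tsc22d3 exceeded Nr3c1 in 5 control tumors and in 1 swimming tumor. Klf9 exceeded Sgk1 in 4 control tumors and in all 6 swimming tumors, the exceptions being control 1 and control 2. Cebpd exceeded Dusp1 in 3 of 12 tumors and was below it in the other 9, the reverse of the order of their means, which lay within the SD of either gene.

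Within the control group the genes did not vary as 1 set. Control 1 was among the 2 highest of 12 tumors for 6 of the 10 genes, control 2 for 4 and control 3 for 3. Relative to the median of control 3 to control 6, control 1 and control 2 had 2.2 and 2.58 times as much Tsc22d3, 2.52 and 2.16 times as much Sgk1, and 2.03 and 2.29 times as much Cebpd. For Klf9 the same ratios were 0.932 and 1.03, and for Fkbp5 0.935 and 1.07. The high tumors for Tsc22d3, Sgk1 and Cebpd were thus not the high tumors for Fkbp5, and differed little from the other control tumors in Klf9. Control 1 had the highest adipocyte and fibroblast marker sums, of 187 and 807 FPKM, whereas control 2 had an adipocyte sum of 13.6 FPKM, within the range of the other control tumors. The fibroblast sum of control 2, at 444 FPKM, was the next highest of the control group, in which the other 4 tumors had 188 to 326 FPKM. Swimming 5 had a fibroblast sum of 780 FPKM and 18.5 FPKM of Tsc22d3. The part of such tissue in the values of control 1 and control 2 was not tested.

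**Figure D3:**
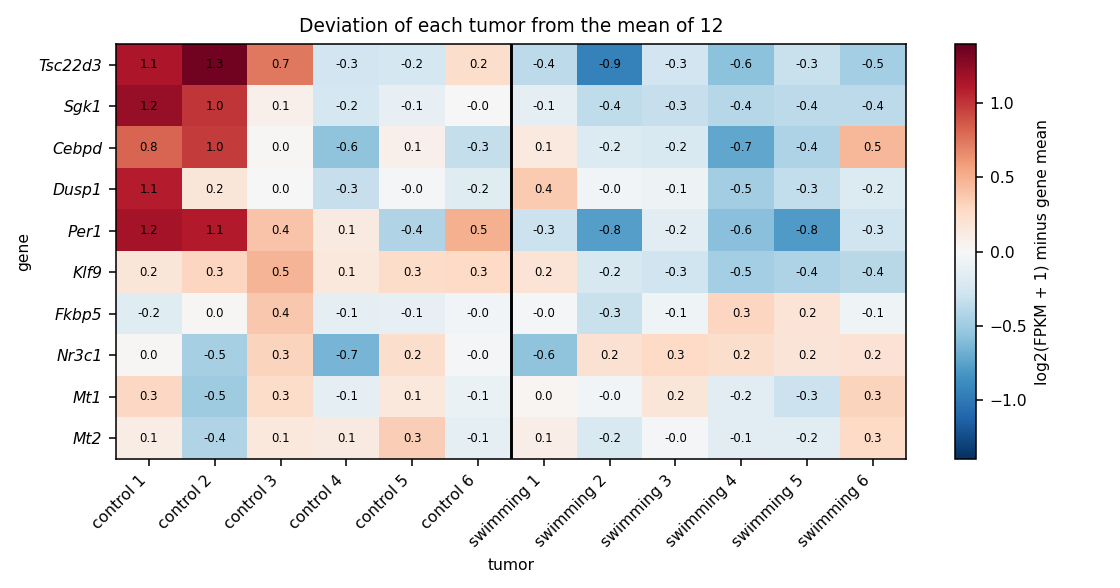
Deviation of each tumor (columns) from the mean over 12 tumors in log2(FPKM + 1) (color and printed value) for the 9 tested genes and Per1, a receptor target of the clock (rows). The line separates the control from the swimming tumors. Control 1 and control 2 stand out for Tsc22d3, Sgk1, Cebpd and Per1, and not for Klf9 or Fkbp5.

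To see which genes varied with Klf9 apart from the group difference, the mean of each group was subtracted and log2(FPKM + 1) was correlated over 12 tumors. None of the 9 relations had a Benjamini-Hochberg adjusted p below 0.05 over the 9, in permutation tests (two-sided, 100000 permutations within groups). The largest in size was with Zbtb16, whose values are near 0 (Pearson r = -0.46, permutation p = 0.126, Spearman rho = -0.39, permutation p = 0.214, adjusted p = 0.783 for r), and r was -0.42 without swimming 4 and swimming 5, the tumors farthest from the median of Klf9. For Dusp1 r was 0.36 (permutation p = 0.181, adjusted p = 0.783) and rho was 0.54 (permutation p = 0.0738), and r was 0.19 without these tumors. For Tsc22d3 r was 0.14 (permutation p = 0.568, adjusted p = 0.866) and rho was 0.20 (permutation p = 0.491), with r = 0.19 without them. For Fkbp5 r was 0.01 (permutation p = 0.974, adjusted p = 0.974) and rho was -0.01 (permutation p = 0.975), and r was 0.53 without them. The r of Fkbp5 was 0.95 within the control group and -0.42 within the swimming group, a difference that was not tested.

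Within the swimming group alone, r with Klf9 was 0.97 for Sgk1, 0.96 for Dusp1 and -0.91 for Nr3c1, over 6 tumors. Swimming 1 had the highest Klf9, Sgk1 and Dusp1 and the lowest Nr3c1 of its group. Over the other 5 swimming tumors r was 0.83 for Sgk1, 0.95 for Dusp1 and 0.23 for Nr3c1. Of these 3, only the r of Nr3c1 changed sign. Sgk1 lay between 10.8 and 11.4 FPKM in those 5 tumors, and whether the relations of Sgk1 and Dusp1 hold without swimming 1 within this group was not tested. For Fkbp5 r was -0.94 over the same 5 tumors. Within the control group r was -0.11 for Sgk1, -0.21 for Dusp1 and 0.56 for Nr3c1. Without control 1, the correlation of Dusp1 with Klf9 over both groups was 0.89 (permutation p = 0.00155, adjusted p = 0.0139 over the 9 relations). This was the 1 relation that passed the threshold when a tumor was left out. Without swimming 1, the correlation of Dusp1 over both groups was 0.03 (permutation p = 0.932, adjusted p = 0.932). That of Sgk1 was -0.07 (permutation p = 0.904, adjusted p = 0.932).

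The same relations were computed for Tsc22d3 after the values were seen. Its correlation with Sgk1 was 0.85 (permutation p = 0.00836, adjusted p = 0.0752 over 9 relations), with rho = 0.73 (permutation p = 0.0237, adjusted p = 0.213), and 0.65 without control 1 and control 2. With Cebpd it was 0.69 (permutation p = 0.042, adjusted p = 0.189), with rho = 0.59 (permutation p = 0.102), and 0.20 without control 1 and control 2, so that this relation rests on those tumors. With Fkbp5 it was 0.29 (permutation p = 0.43, adjusted p = 0.646), with rho = 0.40 (permutation p = 0.238), and 0.72 without control 1 and control 2. For Sgk1 r was 0.89 within the control group and 0.26 within the swimming group.

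Correlations of Klf9 with scores of 9 marker lists, computed in the same way, had no adjusted p below 0.05 over the 9 lists, the smallest being 0.3 for r and 0.131 for rho. The macrophage score had r = -0.52 (permutation p = 0.0884) and rho = -0.52 (permutation p = 0.0703), with r = -0.52 also without swimming 4 and swimming 5. Its r was -0.91 within the control group and -0.37 within the swimming group. By rank the largest relations were with the neutrophil score (rho = -0.59, permutation p = 0.0344, r = -0.38, permutation p = 0.167), the keratinocyte score (rho = 0.59, permutation p = 0.0423, r = 0.47, permutation p = 0.0999) and the adipocyte score (rho = -0.54, permutation p = 0.0438, r = -0.40, permutation p = 0.0799), each with an adjusted p of 0.131 for rho. Without swimming 4 and swimming 5 their r was -0.43, 0.51 and -0.39. Of the 5 keratinocyte markers listed, 4 (Krt14, Krt1, Lor and Trp63) were below 0.5 FPKM in every tumor. The keratinocyte score therefore rests mainly on Krt10, at 1.71 to 2.62 FPKM in control and 1.5 to 2.39 FPKM in swimming tumors. The T and NK cell score had r = -0.48 (permutation p = 0.158) and rho = -0.27 (permutation p = 0.416), with r = -0.46 without these tumors. Its r was -0.82 within the swimming group and 0.24 within the control group.

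Without subtraction of the group means, over 12788 genes with a mean of at least 1 FPKM, the patterns most like that of Klf9 over the 12 tumors were those of Micall1 (r = 0.92), Gm13419 (0.89), Sun2 (0.86), Bbs4 (0.86) and Zfp59 (0.85). These values hold the group difference that Klf9 was chosen for and are a description. Within the control and the swimming group, r was 0.93 and 0.83 for Micall1, an endocytic trafficking protein. It was 0.74 and 0.68 for Sun2, a protein of the inner nuclear membrane, and 0.79 and 0.73 for Zfp59, a zinc finger protein. For Gm13419 it was -0.26 and 0.86, and for Bbs4 -0.08 and 0.75. All of these genes were picked over the same tumors, so a high r within a group is in part given by the choice. The most opposite patterns were those of Mitd1 (-0.97), Psmb10 (-0.89), Gbp3 (-0.84), Nfkbie (-0.84) and Ddx58 (-0.84). In the same order, r within the control group was -0.64, -0.61, 0.40, -0.88 and -0.21. Within the swimming group it was -0.99, -0.89, -0.91, -0.96 and -0.85. Mitd1 acts in cell division, Nfkbie inhibits NF-kappaB, and Ddx58 encodes the RNA sensor RIG-I. Psmb10, an interferon-induced proteasome subunit, had 31.3 to 42.3 FPKM in control and 31.2 to 61.9 FPKM in swimming tumors, and Gbp3, an interferon-induced GTPase, 12.2 to 22.1 and 12.2 to 55.2 FPKM. Among these 12788 genes Tsc22d3 ranked 182nd by its r with Klf9 (0.66), Sgk1 543rd (0.56) and Fkbp5 6357th (-0.02).

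Other genes widely known to be induced through the receptor were counted as a list of 30, of which 29 were listed and 27 tested. Like the members, the gene lists of this text were chosen with earlier results of the groups known. Their counts and p-values are therefore a description. In limma, 2 of the 27 (7.41%) had an unadjusted p below 0.05, beside 5.56% of all genes tested in either direction. Both were lower in the swimming group, beside 2.46% lower over all genes tested, and 0 were higher, beside 3.11%. The median difference was -0.06 in log2(FPKM + 1), and 19 of 27 were below 0, as were 48.3% of all genes tested. Without control 1 and control 2, 1 of the genes was lower and 1 was higher. Both genes had an adjusted p of 0.889 over all genes tested in limma. Per1, a clock repressor with a receptor element, had 9.99, 19.2 and 32.2 FPKM at the lowest, median and highest control tumor, and 7.52, 9.93 and 12.3 FPKM in the swimming group. Control 1 and control 2 were highest, at 32.2 and 30.9 FPKM, and 5 control tumors lay above every swimming tumor. The difference was -0.96 with a standard error of 0.24 (limma, unadjusted p = 0.00157), and -0.63 without control 1 and control 2 (limma, unadjusted p = 0.00726). Errfi1, an inhibitor of the EGF receptor, was 119 ± 15.2 FPKM in control and 96.8 ± 18.1 FPKM in swimming tumors. Its difference of -0.30 (limma, unadjusted p = 0.026) had an unadjusted p of 0.085 without control 1 and control 2. The unadjusted p was 0.0541 to 0.0622 when control 2, control 5, swimming 3, swimming 4 or swimming 5 was left out alone. Anxa1, the highest of the list and an anti-inflammatory phospholipid-binding protein, was 211 ± 12.6 and 206 ± 20.1 FPKM. Ddit4, an inhibitor of mTORC1 named here after its values were seen, had 108 and 129 FPKM in control 1 and control 2, and 31 to 76.7 FPKM in the other 10 tumors.

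Inflammatory genes that glucocorticoids are known to repress were counted as a list of 16, all tested. In limma, 3 of them (18.8%) had an unadjusted p below 0.05, beside 5.56% of all genes tested in either direction. All 3 were higher in the swimming group, beside 3.11% higher over all genes tested, and 0 were lower. The median difference was 0.24, and 13 of 16 were above 0. This list too was chosen with earlier results known, so its counts are a description. The 3 were the cytokines Tnf and Ifng and the chemokine Ccl5, each with an adjusted p of 0.889 in limma. Tnf was 0.724 to 1.69 FPKM in control and 1.21 to 2.4 FPKM in swimming tumors (difference 0.43, limma, unadjusted p = 0.0046). Ifng, which T and NK cells make, was 0.125 to 0.584 FPKM and 0.334 to 1.83 FPKM (difference 0.55, limma, unadjusted p = 0.00629). Ccl5 was 2.19 to 4.87 FPKM and 2.98 to 9.46 FPKM (difference 0.60, limma, unadjusted p = 0.0248), and its unadjusted p was 0.0544 to 0.0579 when control 5, control 6, swimming 5 or swimming 6 was left out. In the list 6 genes were higher without swimming 4, and 5 were higher without control 1 or without swimming 1. Ccl2, the highest of the list, was 65.8 ± 17.8 FPKM in control and 66.7 ± 10.2 FPKM in swimming tumors.

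Markers of T and NK cells were, like these 3 genes, higher on average in the swimming group. Whether they varied together between tumors was not tested. Of the 8 markers, 4 (Cd3d, Cd3g, Cd8a and Cd2) had an unadjusted p below 0.05 in limma and were higher in the swimming group. Over all genes tested this held for 3.11% in the higher direction and for 5.56% in either direction. The adjusted p of the 4 markers in limma was 0.889. The summed level of the 8 was 3.45 to 8.3 FPKM in control and 5.55 to 14.3 FPKM in swimming tumors, and none of them was at 0 in every tumor. The part of these cells in the levels of Tnf, Ifng and Ccl5 was not tested.

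**Figure D4:**
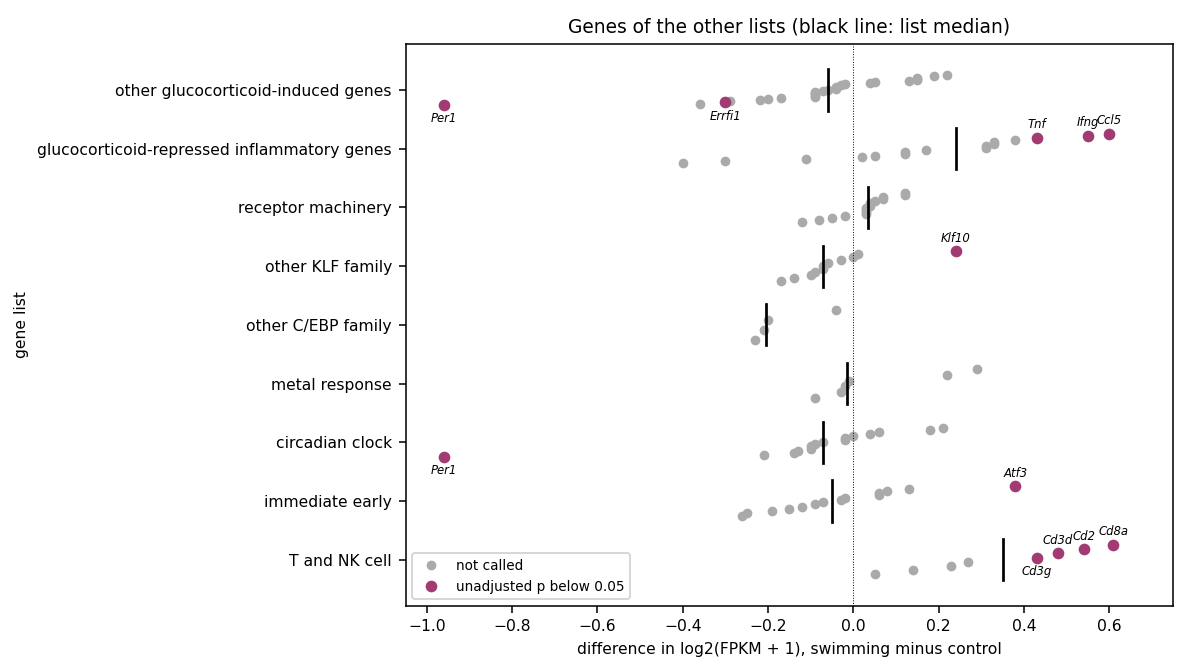
Difference in log2(FPKM + 1), swimming minus control (x axis), of each tested gene in 9 gene lists (y axis). Points are genes, the black line is the median of the list, and named genes had an unadjusted p below 0.05 in limma. The receptor machinery lies within -0.12 to 0.12, while Per1 lies at -0.96.

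The other members of the Krüppel-like family were compared because they share the zinc fingers of Klf9. Of 16 genes 15 were listed and 11 tested, with a median difference of -0.07. At an unadjusted p below 0.05 in limma, 1 gene (9.09%) was higher and 0 were lower, beside 5.56% of all genes tested in either direction. Klf10, a TGF-beta-inducible repressor, was 18.9 ± 2.18 FPKM in control and 22.6 ± 2.98 FPKM in swimming tumors. Its difference of 0.24 in log2(FPKM + 1) (limma, unadjusted p = 0.0241, adjusted p = 0.889) was 0.15 without control 1 and control 2, with an unadjusted p of 0.151 in limma. The unadjusted p was 0.0551 to 0.0588 when control 1, control 2 or swimming 2 was left out alone. Klf13, the closest relative of Klf9 in the family, was 22.1 ± 2.64 and 20.5 ± 1.19 FPKM, with a difference of -0.10 and overlapping groups. Klf4 was the highest, at 70.9 ± 7.29 FPKM in control and 68 ± 6.4 FPKM in swimming tumors. Klf6 was 48.4 ± 4.68 and 43.1 ± 6.01 FPKM, Klf2 was 26 ± 5.15 and 23.5 ± 3.54 FPKM, and Klf15, a receptor target in muscle and liver, was below 1 FPKM in every tumor.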

How the data were processed

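The authors sequenced RNA of 12 CT-26 tumors, with HISAT2 2.0.5 and StringTie 1.3.3 named in the submitters' processing notes. The authors deposited 1 FPKM value per gene and tumor. The methods name hg38, the notes list hg38 and GRCm38, and the identifiers are those of mouse Ensembl. Symbols (30542 of 30630 genes), coordinates and overlaps are from GENCODE M21 on GRCm38, matched by identifier. The labels gave the groups and replicate numbers, and all tumors were used.

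The groups were compared on log2(FPKM + 1), a scale that shrinks changes of weak genes, for 19018 genes that reached 0.1 FPKM in 6 or more tumors. The fit used lmFit and eBayes with trend in limma 3.58.1 (R 4.3.3), without covariates, and Benjamini-Hochberg adjustment over all genes tested. The p-values of limma set the group difference against the spread between tumors of different mice. The comparison and the correlations were tested on simulated data. Python 3.11.15, pandas 2.3.3, numpy 2.4.6, scipy 1.17.1 and matplotlib 3.10.9 were used for the rest.

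The members and lists were chosen with earlier results of these data known. Named genes are the 10 members, list genes at an unadjusted p below 0.05, the highest gene of each list, paralogs of members, and the 5 genes most like and most opposite to Klf9. Other names were chosen after their values were seen. The alternatives were pseudocounts of 0.1 and 0.01, no filter or 1 FPKM, quantile normalization, trimmed mean scaling, no trend, sample weights, a replicate block and leaving out each tumor. Leaving out control 1 and control 2, or control 3 as well, was chosen after the data were seen. A comparison of protein sequences was planned and not made.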

Additional observations from a re-analysis of the deposited data

Results flagged for a closer look

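In 7 of 34 groups of 6 tumors, 1 tumor lay farther from the nearest other tumor than Dixon's 95% critical value allows, where chance gives 1.7. The rule was applied to FPKM without logarithms, and the number by chance assumes normal values. The tested groups were those of the 10 members and of 7 other named genes, and all 7 cases were among the members. The other genes were taken for an unadjusted p below 0.05 in limma, which favors a small spread within groups. The members can therefore not be set against them. Swimming 1 accounted for 3 of the 7 cases. It had 18.5 FPKM of Klf9, with 13.7 FPKM in the next tumor of its group, 13.3 FPKM of Sgk1, with 11.4 FPKM in the next, and 14.7 FPKM of Nr3c1, with 25.3 FPKM in the next. Control 1 had 27.9 FPKM of Dusp1, with 14.2 FPKM in the next control tumor, and 0.425 FPKM of Zbtb16, with 0.0898 FPKM in the next. Swimming 5 had 0.356 FPKM of Zbtb16, with 0.125 FPKM in the next swimming tumor. Control 3 had 51.3 FPKM of Fkbp5, with 39.6 FPKM in the next control tumor.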

How the results depend on the processing

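Under the 23 alternatives the differences of Klf9 (-0.63 to -0.49), Tsc22d3, Sgk1, Nr3c1, Per1, Errfi1, Tnf, Ccl5, Klf10 and Atf3 kept their sign, as did that of Ifng under 22. Those of Cebpd and Dusp1 were 0.12 and 0.05 without control 1, control 2 and control 3, and those of Fkbp5, Mt1 and Mt2 changed sign in some. The unadjusted p exceeded 0.05 in limma in 8 alternatives for Errfi1, 6 for Klf10 and 5 for Ccl5, and in 1 each, without control 1, control 2 and control 3, for Tnf, Ifng and Atf3. Genes with an unadjusted p below 0.05 numbered 591 higher and 467 lower, 391 higher with a filter of 1 FPKM, and 403 to 861 higher and 388 to 655 lower with 1 tumor left out. Without control 1, control 2 and control 3, they numbered 1042 higher and 858 lower, and the difference of Tsc22d3 was -0.40. Genes at an adjusted p below 0.05 numbered 0, with 1 under sample weights and 0 to 3 with 1 tumor left out (3 without control 4 and 2 without swimming 1). Other glucocorticoid-induced genes were 2 lower and 0 higher, with 1 lower under sample weights, 1 lower and 1 higher without control 1 and control 2, 1 higher without control 3 as well, and 1 to 4 lower with 1 tumor left out (4 without control 3 or control 4). Repressed inflammatory genes were 3 higher, with 2 to 6 higher and 0 to 1 lower with 1 tumor left out (6 without swimming 4). Of the relations with Klf9, 0 passed, with 0 to 1 when 1 tumor was left out. The cause was not tested.

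The labels do not say whether the replicate numbers pair the tumors, and the main fit did not pair them. Deviations of same-numbered tumors correlated at -0.32 to 0.00588, which cannot exclude a pairing. With the number as a replicate block, 451 genes were higher and 441 lower, and 3 other glucocorticoid-induced genes were lower. The unadjusted p was 0.059 for Ccl5 and 0.0582 for Klf10 in limma, and the difference of Klf9 was -0.53. Over 6 pair differences 0 of the relations with Klf9 passed, but several changed sign. For Dusp1 r was -0.91 (permutation p = 0.0556) and for Sgk1 -0.74 (permutation p = 0.0653), both positive in the main setting. For Zbtb16, near 0 FPKM, r was -0.89 (permutation p = 0.0444). Each of these had an adjusted p of 0.196. The estimated depth was lowest in control 2, and a low depth limits weakly expressed genes such as Zbtb16 most.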

Other observations

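Clock genes and immediate early genes overlap with receptor targets and were counted in the same fit. Of 15 clock genes tested, 1 (6.67%) had an unadjusted p below 0.05 in limma, beside 5.56% of all genes tested in either direction. It was Per1, which was lower, while 0 were higher, and the median difference was -0.07. The highest immediate early gene, Jund, was 106 ± 15.7 FPKM in control and 109 ± 13.9 FPKM in swimming tumors. Beside 5.56% of all genes tested in either direction, 1 of the 14 immediate early genes (7.14%) was higher and 0 were lower. This was Atf3, a stress-induced transcription factor, at 2.07 to 3.07 FPKM in control and 2.38 to 5.06 FPKM in swimming tumors (difference 0.38, limma, unadjusted p = 0.0167, adjusted p = 0.889).

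Skeletal muscle markers summed to 3.6 to 244 FPKM in control and 2.62 to 348 FPKM in swimming tumors, and 0 of 14 had an unadjusted p below 0.05 in limma. Of the CT-26 carcinoma markers, Krt8 had 129 FPKM in control 4 and a median of 8.94 FPKM in the control group.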
